A study of Mus musculus with 10 samples.

Results

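Golgi glycosyltransferases are the enzymes that build the sugar chains of secreted and cell surface proteins and of glycolipids. They were taken here as the genes whose symbols match the families Galnt, St3gal, St6gal, St6galnac, St8sia, B3gnt, B4galt, B3galt, Fut, Mgat and Gcnt, together with C1galt1 and C1galt1c1, which gave 84 of the 24594 genes counted. Members were chosen by gene name, by a rule made with earlier results of these data known. The only measured value the rule itself refers to is the high count of Galnt2, selected on its level in these same libraries. That level is therefore described without a test. RNA was sequenced from freshly sorted mammary epithelial cells of wild type C57BL/6J mice, from 5 libraries of luminal cells, which line the ducts, and 5 of basal cells, the contractile layer around them. Glands were those of virgin mice, tissue was dissociated with collagenase, hyaluronidase, trypsin and dispase, and both cell types were sorted on the surface proteins EpCAM and CD49f with a lineage stain for TER-119, CD31 and CD45, which mark erythroid, endothelial and blood cells. Each library is a population that can hold several cell states. The question addressed is how the 2 cell types differ in gene expression. No treatment or mutant allele enters any of the 10 libraries. The study gives an age range for its mice as a whole. The ages of these mice and any pooling of animals are not given in the labels.

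Library totals ran from 13203146 to 17998165 counts. The titles of all 10 libraries contradict their cell type labels, and groups follow the cell type label, which the source name and the library description also carry. All 9 luminal markers tested (among them Krt8, Kit and Elf5) were higher in the libraries labelled luminal and all 7 basal markers (among them Krt5, Acta2 and Trp63) in those labelled basal. Summed markers of other cells were low, at 2.58 to 6.72 CPM (the usual depth-scaled count, on totals scaled with TMM factors) in luminal and 6.65 to 13.2 CPM in basal libraries for 4 endothelial genes, 3.38 to 9.85 and 11.9 to 33.7 CPM for 5 leukocyte genes, 23.7 to 110 and 24.7 to 40.5 CPM for 4 fibroblast genes, 0.611 to 1.59 and 3.95 to 8.88 CPM for 3 adipocyte genes, and 3.37 to 16.8 and 0 to 0.188 CPM for 2 erythroid genes. Of these genes Cd74 (2.62 ± 1.19 CPM in luminal and 20.7 ± 7.89 in basal libraries, SD, n = 5), Cdh5, Fabp4 and Pdgfra were called, as defined below, higher in basal cells, and Dcn (38.3 ± 33.4 and 12.0 ± 1.43 CPM), Cd52 and Hba-a1 higher in luminal cells, Cd52 with exons of Crybg2 in its span that could supply 46.0% of its luminal and 59.0% of its basal counts. Cd3e and Adipoq were at 0 in every library, and Ptprc did not exceed 0.381 CPM. The part of these cells in the differences below was not tested. In luminal replicate 4, 1 gene without a symbol reached 24827 CPM, whereas it was at 1694 to 3257 CPM in the remaining luminal libraries. In bulk RNA, fewer cells that make a transcript and less transcript per cell cannot be told apart.

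Glycans grow stepwise in the Golgi. GalNAc transferases place the first sugar of mucin-type O-glycans on serine or threonine, and C1galt1 with its chaperone C1galt1c1 adds galactose to form core 1. Mgat enzymes set the branches of N-glycans, B4galt and B3gnt enzymes extend the branches in turn with galactose and N-acetylglucosamine, and sialyltransferases and fucosyltransferases cap them. In the mammary gland B4galt1 also serves as the catalytic part of lactose synthase.

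The count deposited under Galnt2, which encodes a GalNAc transferase, was far above that of any other member. In luminal replicates 1 to 5 it was 66588, 86100, 62880, 74644 and 65415 counts, and in basal replicates 1 to 5 it was 106270, 82911, 72864, 84545 and 95141 counts. It ranked between the 3rd and the 8th most counted gene of a library, at 9.46 to 44.3 times the next member. In RefSeq GRCm38.p6 and GENCODE M21 Galnt2 lies on chromosome 8, and its own GENCODE transcripts span 124231391 to 124345724, or 114 kb. A read-through gene model, Gm20388, shares its exons but begins at 119910841 and reaches over 4435 kb. The other counted genes lying wholly in that longer span number 76, with Slc7a5, Cox4i1, Rpl13 and Crispld2 the most counted. Their counts summed to between 90.2% and 97.8% of the Galnt2 count in every library. The remainder was 3463, 3425, 3055, 1670 and 3183 counts in luminal and 9727, 7816, 6489, 8267 and 9155 counts in basal libraries. It also holds reads that fall in no counted gene and those of Usp10, which lies partly in the span and had 4914 counts over the luminal and 11584 over the basal libraries, so it is no count of Galnt2 itself, and the difference between cell types in it was not tested.

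**Figure D1:**
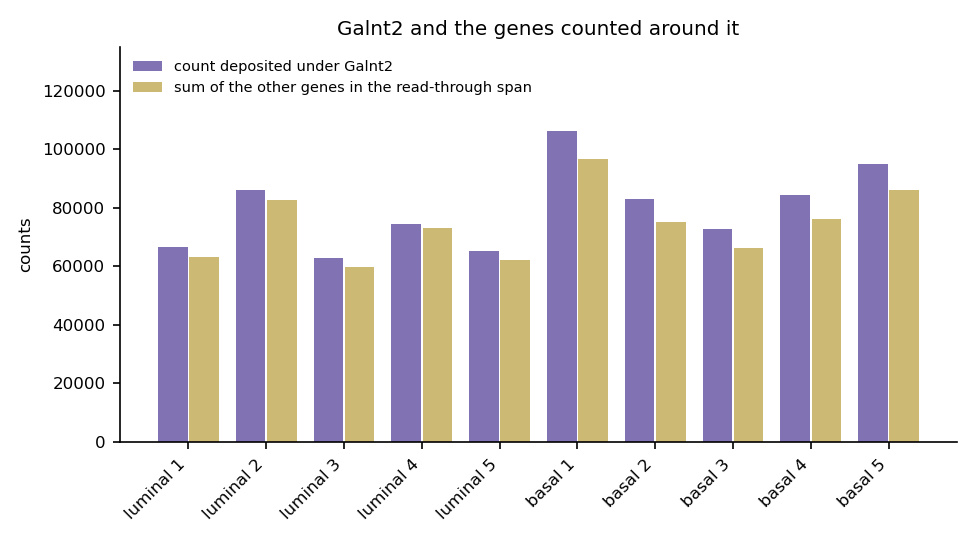
Counts for each of the 10 libraries, with the count deposited under Galnt2 beside the sum of the 76 other genes counted in the read-through span. In every library the sum reaches at least 90.2% of the Galnt2 count.

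The same manner of counting was seen elsewhere in the table. Of 156 pairs in which a gene with at least 200 counts lies inside another gene and shares no exon base with it, the outer gene held at least as many counts as the inner gene in every library in 149. Patl2, which encloses B2m, had 9859 counts in luminal replicate 1, where B2m had 9676. Txnip and the antisense gene Gm15441 differed by at most 0.161% in any library. A member's count can therefore include reads of other genes within its span, on either strand, but this did not hold throughout. By exon bases within the span, Cdc73 would supply 4763% of the luminal counts of B3galt2. Pigk would likewise supply 2218% of those of St6galnac5, which is more than these members held. The genes within the span could supply 20% or more of the counts of 13 members, a limit chosen after the data were seen, and 11 of these 13 were tested. They are Galnt2, Galnt4, Gcnt7, Mgat4a, St3gal6, St6galnac2, B3gnt2, B3gnt4, B3gnt8, B3gnt9 and B4galt2, and their values below are uncertain. B3galt2 and St6galnac5 were not tested.

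Of the 84 members, 63 passed the filter on low counts and 21 did not, with no value above 46 counts or 3.14 CPM among the latter. With the quasi-likelihood test of edgeR and an adjusted p under 0.05, which is what called means here, 44 of the 63 (69.8%) were called, against 64.8% of all genes tested. They were 20 members higher in luminal cells (31.7%, against 33.6% of all genes) and 24 higher in basal cells (38.1%, against 31.2%), and 19 were not called. The share called lay near that of all genes, so the members were not set apart by how many of them differed. Without the 11 uncertain members, 37 of 52 were called, 17 of them toward luminal and 20 toward basal cells. Leaving out luminal replicate 4 gave 21 luminal and 26 basal calls among 65 members tested, where all genes gave 4814 and 4612 among 14816. The median log2 fold change of luminal over basal was 0.13 for the members and 0.05 for all genes, and the median size of the change was 0.94 and 0.81.

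Under a stricter limit, an adjusted p under 1e-04 with a change of at least 2-fold, 19 members passed (30.2%, against 25.9% of all genes), 8 higher in luminal (12.7%, against 12.4%) and 11 in basal cells (17.5%, against 13.5%). CPM ranges of the 2 cell types did not overlap for 34 of the 63 members (54.0%, against 50.1% of all genes), 14 of them higher in luminal and 20 in basal libraries. Over all genes the shares were 24.7% higher in luminal and 25.3% in basal libraries. Uncertain members, such as B4galt2 and St3gal6, are part of the counts under the stricter limit and of those by range. The plot of changes by enzyme group shows members of both directions in each enzyme group except O-glycan core and branching and the alpha2,8-sialyltransferases.

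**Figure D2:**
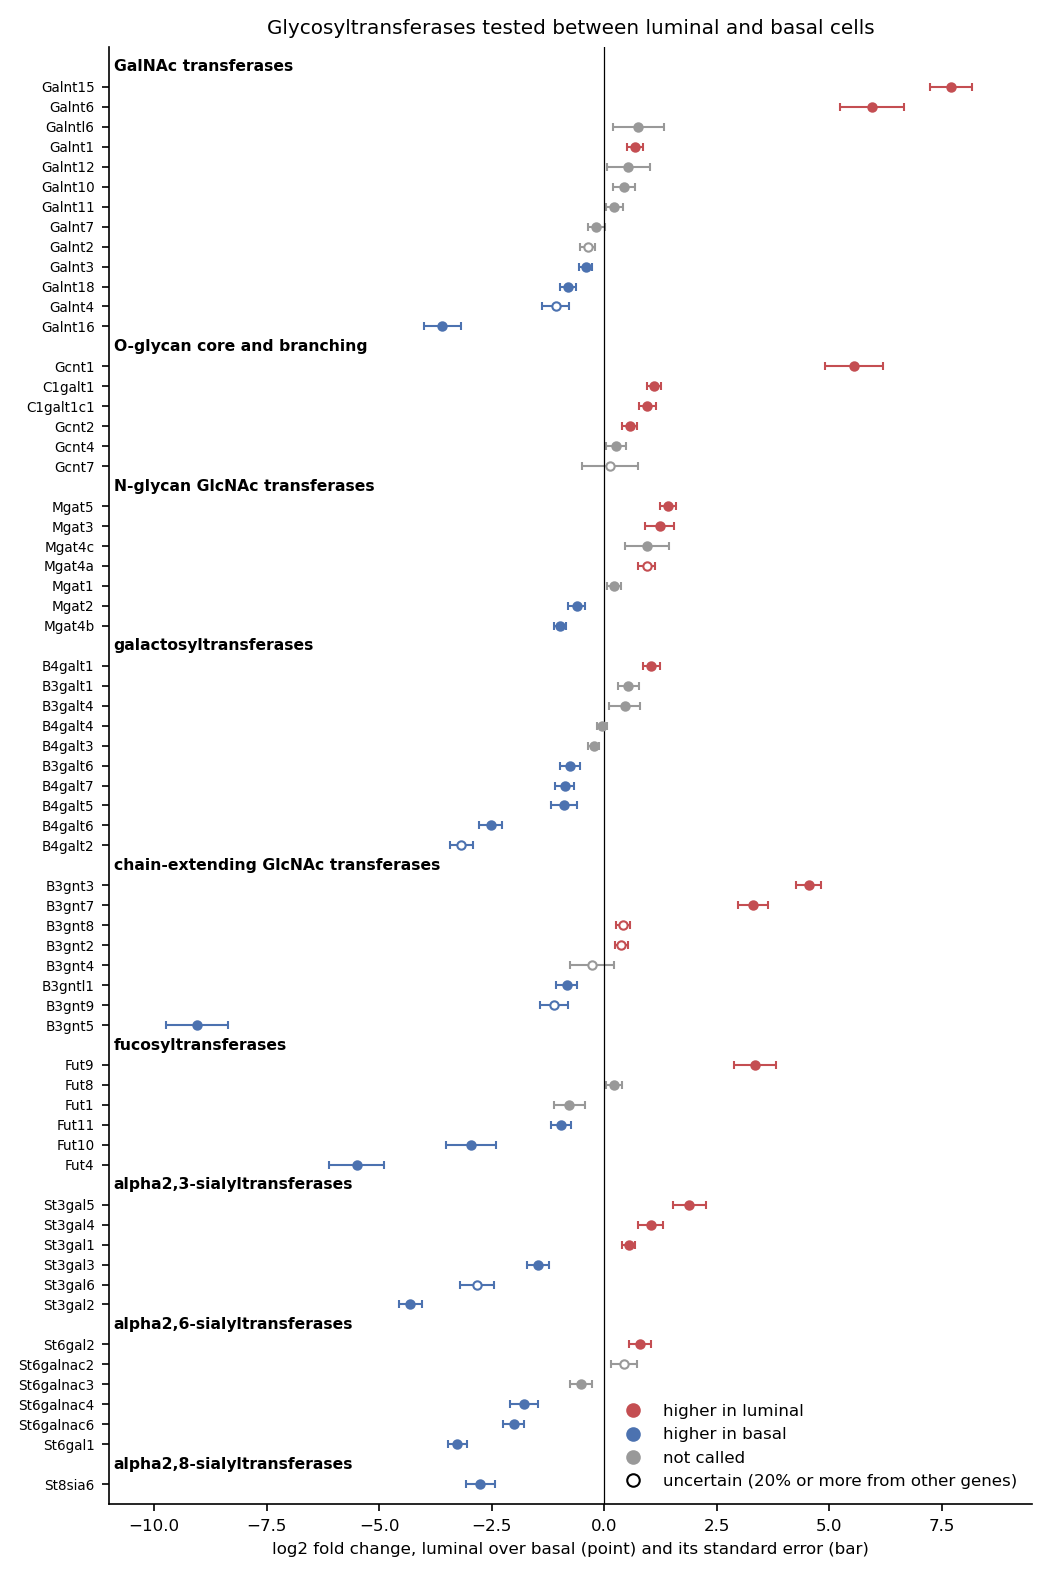
Log2 fold change of luminal over basal cells for the 63 members tested, with its standard error as the bar, by enzyme group. Points are coloured by the edgeR call, open points mark the 11 uncertain members, in which other genes could supply 20% or more of the counts, and values run from -9.05 for B3gnt5 to 7.70 for Galnt15. The point of Galnt2, selected on its level, is drawn with the others but is no result.

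Sequence upstream of the gene is shown for some of the members past the stricter limit. It is not shown for Galnt15 and B3gnt5, which had the largest change in each direction. The RefSeq promoter table (GRCm38.p6) holds 62 of the 84 members and 16 of the 19 past that limit, with 250 bases before a transcript start. In 6 of the 16 these bases hold no annotated GENCODE exon and at least 150 of them lie before the start of the RefSeq gene, and those bases are given 5′ to 3′ on the gene's strand. Windows are chr15:100729377-100729626 (-) for Galnt6, chr19:17372845-17373094 (-) for Gcnt1, chr1:127204736-127204918 (+) for Mgat5, chr16:23224490-23224728 (+) for St6gal1, chr16:58524261-58524503 (-) for St3gal6 and chr4:118134973-118135196 (-) for St3gal3. The first 3 genes are higher in luminal and the last 3 in basal cells, where the value of St3gal6 is uncertain as said above. Capitals mark a match to a motif searched on both strands.
Galnt6: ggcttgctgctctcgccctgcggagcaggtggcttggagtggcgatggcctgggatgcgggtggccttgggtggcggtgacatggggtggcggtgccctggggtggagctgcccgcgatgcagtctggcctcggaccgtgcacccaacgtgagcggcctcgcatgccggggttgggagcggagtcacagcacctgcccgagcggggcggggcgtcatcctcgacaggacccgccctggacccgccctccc
Gcnt1: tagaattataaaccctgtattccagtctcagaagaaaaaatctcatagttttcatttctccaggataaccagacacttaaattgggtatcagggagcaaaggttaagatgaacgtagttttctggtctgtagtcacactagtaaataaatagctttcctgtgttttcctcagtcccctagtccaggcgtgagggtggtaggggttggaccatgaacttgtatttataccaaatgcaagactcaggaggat
Mgat5: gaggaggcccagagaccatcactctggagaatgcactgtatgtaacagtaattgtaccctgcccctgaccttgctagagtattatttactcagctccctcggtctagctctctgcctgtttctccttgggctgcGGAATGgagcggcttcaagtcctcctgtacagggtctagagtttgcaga
St6gal1: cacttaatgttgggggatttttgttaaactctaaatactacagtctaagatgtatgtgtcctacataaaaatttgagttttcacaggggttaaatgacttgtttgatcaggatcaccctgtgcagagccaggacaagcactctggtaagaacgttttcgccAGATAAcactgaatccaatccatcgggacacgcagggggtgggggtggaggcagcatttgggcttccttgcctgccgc
St3gal6: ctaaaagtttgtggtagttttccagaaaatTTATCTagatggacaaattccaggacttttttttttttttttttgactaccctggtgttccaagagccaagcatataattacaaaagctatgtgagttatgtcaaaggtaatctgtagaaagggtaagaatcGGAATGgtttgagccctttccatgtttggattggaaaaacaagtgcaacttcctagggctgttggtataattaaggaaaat
St3gal3: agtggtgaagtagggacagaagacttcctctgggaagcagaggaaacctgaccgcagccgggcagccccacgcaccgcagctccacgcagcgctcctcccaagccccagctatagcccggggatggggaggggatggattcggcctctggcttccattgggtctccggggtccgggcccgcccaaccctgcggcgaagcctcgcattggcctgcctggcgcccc

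The motifs were AGATAA of GATA factors, CATTCC of TEAD factors, and the CArG box of SRF. TRPS1, the repressor the study is about, belongs to the GATA family. In luminal cells, however, the study reports C2H2 zinc finger motifs enriched where TRPS1 binds. It proposes that TRPS1 depends there less on its GATA domain. C2H2 motifs were not searched here. AGATAA was matched upstream of St6gal1 and St3gal6, and CATTCC upstream of Mgat5 and St3gal6. Over the full 250 bases of one promoter for each of 27025 genes, AGATAA was found in 10.2%, CATTCC in 12.6% and the CArG box in 1.41%. Over the 62 member promoters they were found in 7, 9 and 0. The windows shown were 72.8% GC for Galnt6, 68.3% for St3gal3 and 35.0% for St3gal6, where the median over the full 250 bases was 64.0% for the members and 52.0% for all genes. Matches are a description of these letters and no evidence of binding.

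The GalNAc transferases, which start O-glycans, held the member with the largest change toward luminal cells, Galnt15. Of 19 members 13 were tested, with 3 higher in luminal cells, 4 higher in basal cells and 6 not called. In this and the following groups the counts are to be read against the 64.8% of all genes called, 33.6% toward luminal and 31.2% toward basal cells, and groups of this size were not tested against it. Galnt15 was at 147, 81.6, 120, 51.8 and 87.6 CPM in luminal replicates 1 to 5 and at 0.374, 0.955, 0.619, 0 and 0.420 CPM in basal replicates 1 to 5. Every luminal library lay above every basal one, and luminal over basal gave 7.70 ± 0.47 on the log2 scale (SE, edgeR adjusted p = 4.97e-09). Galnt6 was likewise a luminal transcript, at 3.50 to 18.6 CPM in luminal libraries against 0 to 0.232 CPM in basal ones (log2 fold change 5.95, adjusted p = 5.06e-06). The highest value was that of luminal replicate 1, without which the log2 fold change was 5.20. In luminal cells Galnt15 made up 12.4% ± 3.16 (SD, n = 5) of the length-scaled sum of this group without Galnt2.

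Galnt16 had the largest difference in the basal direction of this group. It was at 0.750, 0.737, 1.23, 1.37 and 0.127 CPM in luminal libraries and 10.6, 12.2, 11.1, 8.0 and 9.11 CPM in basal ones. No libraries of the 2 cell types overlapped, and the log2 fold change came to -3.60 ± 0.41 (SE, edgeR adjusted p = 2.73e-06). Smaller differences were found for Galnt18 (-0.81), Galnt3 (-0.42) and Galnt4 (-1.08, uncertain because its span holds exons of Poc1b) toward basal cells and for Galnt1 (0.68) toward luminal cells. Galnt3 was not called with upper-quartile factors (adjusted p = 0.0963), with totals only (0.219) or without luminal replicate 2, 3 or 4 or basal replicate 2 or 3 (0.0544 to 0.0755). The most abundant GalNAc transferases by CPM per kb of the longest transcript, Galnt2 aside, were common to both cell types. Galnt3 was at 24.9 ± 5.26 CPM per kb (SD, n = 5) in luminal and 33.3 ± 3.66 in basal cells, Galnt7 at 22.2 ± 6.35 and 25.1 ± 2.42, and Galnt18 at 21.1 ± 5.28 and 36.9 ± 3.8. Galnt2 was fitted with the other members, is counted among those not called and is drawn in the plot of changes. Its call changed between the alternatives. As it was selected on its level and its count is mostly that of other genes, none of this is a result about Galnt2. Without Galnt2 in totals and test, 62 members were tested, with 20 called higher in luminal and 24 in basal cells.

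**Figure D3:**
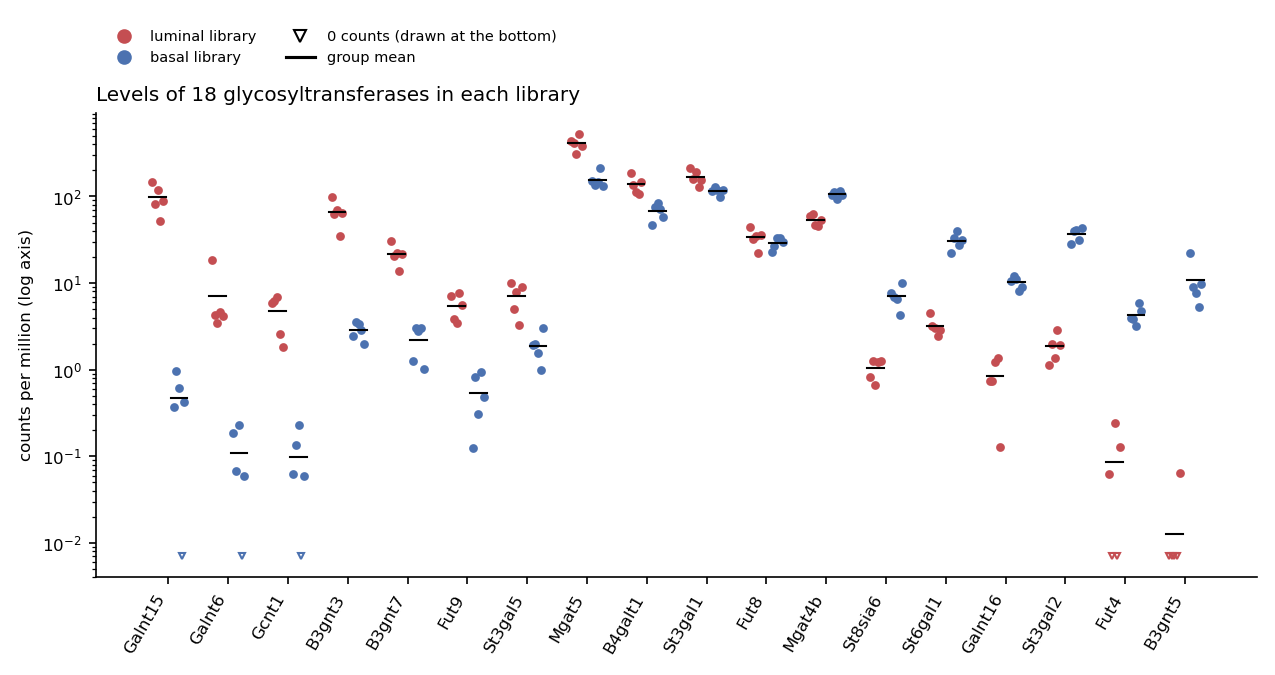
CPM of 18 members in each luminal and each basal library on a log axis, with group means as bars and libraries at 0 counts drawn as open triangles at the bottom. Galnt15, Galnt6 and Gcnt1 lie below 1 CPM in every basal library, and B3gnt5 and Fut4 below 1 CPM in every luminal library.

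The group of O-glycan core and branching holds 8 genes, among them a chaperone, C1galt1c1, and Gcnt2, which branches poly-lactosamine. Of the 8, 6 were tested, and 4 were higher in luminal cells, 0 in basal cells and 2 not called, so the share called was again near that of all genes. C1galt1, the core 1 galactosyltransferase, was at 132, 88.0, 102, 91.2 and 141 CPM in luminal and 58.8, 47.5, 52.1, 44.8 and 55.9 CPM in basal libraries. Its chaperone C1galt1c1 was at 26.1, 14, 17.2, 24.1 and 20.6 CPM in luminal and 10.6, 9.82, 8.82, 12.3 and 10.9 CPM in basal libraries. For both genes no basal library reached the lowest luminal one, with log2 fold changes of 1.10 ± 0.16 (SE, edgeR adjusted p = 3.09e-05) and 0.96 ± 0.19 (adjusted p = 0.000583).

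Gcnt1, which makes the core 2 branch, was at 5.94, 6.16, 6.99, 2.60 and 1.84 CPM in luminal and 0.0624, 0.136, 0.232, 0 and 0.0599 CPM in basal libraries. All luminal values stood above all basal values, and the log2 fold change came to 5.55 ± 0.64 (SE, edgeR adjusted p = 3.26e-06). Gcnt2, the I-branching enzyme of poly-lactosamine, was at 95.2, 58.4, 80.5, 76.2 and 92.6 CPM in luminal and 38.9, 57.5, 65.6, 52.1 and 58.8 CPM in basal libraries. Its ranges overlapped and its log2 fold change was 0.56 ± 0.17 (SE, edgeR adjusted p = 0.00935). Per kb of the longest transcript Gcnt2 was at 18.5 ± 3.39 CPM (SD, n = 5) in luminal cells, little above C1galt1 at 18.2 ± 3.97, and at 12.5 ± 2.3 against 8.5 ± 0.949 in basal cells. Per kb of summed exon length it was below C1galt1 in both, at 11.4 against 18.2 in luminal and 7.74 against 8.5 in basal cells. Gcnt4 and Gcnt7 were not called, at 0.26 (adjusted p = 0.300) and 0.13 (adjusted p = 0.865), and B3gnt6, the core 3 enzyme, was not tested, at 0.381 to 1.53 CPM in luminal and 0 to 0.312 CPM in basal libraries. The length-scaled sum of the group was 54.7 ± 9.53 CPM per kb (SD, n = 5) in luminal and 30.4 ± 2.06 in basal cells. Gcnt2 made up 33.8% of it in luminal and 41.1% in basal cells, and C1galt1c1 25.7% and 24.0%, as means of 5 libraries.

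The N-glycan branching enzymes differed in which branch-forming member led. Of 9 Mgat members 7 were tested, with 3 higher in luminal cells, 2 higher in basal cells and 2 not called. Mgat5, which adds the beta1,6 branch, was at 440, 417, 309, 522 and 381 CPM in luminal and 150, 136, 147, 214 and 132 CPM in basal libraries. Every luminal library exceeded every basal one, and the log2 fold change came to 1.41 ± 0.18 (SE, edgeR adjusted p = 8.24e-06). Mgat5 made up 35.2% ± 6.85 (SD, n = 5) of the length-scaled sum of the group in luminal and 14.9% ± 1.69 in basal cells.

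Mgat4b, which adds the beta1,4 branch on the other arm, went the other way. It was at 58.8, 62.8, 47.1, 45.9 and 54.2 CPM in luminal and 105, 112, 94.2, 116 and 105 CPM in basal libraries. Its ranges did not overlap, its log2 fold change was -0.98 ± 0.13 (SE, edgeR adjusted p = 1.23e-05), and its share of the group was 15.8% ± 1.69 (SD, n = 5) in luminal and 35.7% ± 2.97 in basal cells. Its relative Mgat4a was higher in luminal cells (0.94, adjusted p = 0.000443), but its span holds the gene 4930594C11Rik, whose counts come to 33.6% of the Mgat4a counts in luminal and 66.9% in basal libraries. Mgat3, which adds the bisecting N-acetylglucosamine, was higher in luminal cells (1.23, adjusted p = 0.00460) with overlapping ranges, and Mgat2 was higher in basal cells (-0.61, adjusted p = 0.0116), which was not called with totals only (adjusted p = 0.0707). Mgat1, which opens the complex pathway, was not called (0.22, adjusted p = 0.230). It was called with totals only (adjusted p = 0.0406) and without basal replicate 4 (0.0155).

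Of 12 galactosyltransferases 10 were tested, and 1, B4galt1, was higher in luminal cells, 5 were higher in basal cells and 4 not called, a share called near the 64.8% of all genes. B4galt1 was at 188, 137, 112, 107 and 145 CPM in luminal and 46.6, 75.4, 84.6, 70.8 and 58.1 CPM in basal libraries. Luminal and basal values did not overlap, the log2 fold change came to 1.04 ± 0.19 (SE, edgeR adjusted p = 0.000255), and its share of the group's length-scaled sum was 38% ± 5.38 (SD, n = 5) in luminal and 17.3% ± 2.98 in basal cells. B4galt6, one of the enzymes that make lactosylceramide, was at 5.80 to 17.9 CPM in luminal and 55.1 to 72.6 CPM in basal libraries, with a log2 fold change of -2.52 ± 0.26 (SE, edgeR adjusted p = 9.81e-07).

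B4galt2 had the most negative value of the group. It was at 2.44, 3.69, 1.90, 3.66 and 1.52 CPM in luminal and 23.3, 26.7, 26.7, 21.1 and 22.2 CPM in basal libraries. The ranges did not overlap and the log2 fold change came to -3.18 ± 0.25 (SE, edgeR adjusted p = 7.1e-08). Its span holds exons of Ccdc24, with 1182 counts over the luminal and 7484 over the basal libraries, and of Slc6a9, with 2494 and 17325, so the B4galt2 value cannot be told apart from theirs. B4galt5 (-0.89), B4galt7 (-0.88) and B3galt6 (-0.76) were also higher in basal cells, the latter 2 being enzymes of the proteoglycan linker. B4galt3 and B4galt4 were not called, at -0.23 (adjusted p = 0.116) and -0.05 (adjusted p = 0.707). B3galt5 was not tested. It had 105 counts over the luminal and 3 over the basal libraries, a ratio of 33.3 with a 95% interval of 11.1 to 164 for counting error only. The ranges overlapped, with 39, 24, 9, 1 and 32 counts in luminal and 0, 2, 1, 0 and 0 in basal libraries.

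Of 8 enzymes that extend chains with N-acetylglucosamine, all tested, 4 were higher in luminal cells, 3 higher in basal cells and 1 not called. B3gnt3, which extends core 1 O-glycans, was at 97.9, 63.1, 69.5, 35.4 and 64.7 CPM in luminal and 2.43, 3.55, 3.40, 2.88 and 1.98 CPM in basal libraries. The ranges lay far apart, and the log2 fold change came to 4.54 ± 0.27 (SE, edgeR adjusted p = 4.97e-09). B3gnt7, known for keratan sulfate and lactosamine chains, was at 13.9 to 31.0 CPM in luminal and 1.02 to 3.07 CPM in basal libraries (log2 fold change 3.31, adjusted p = 7.58e-07).

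B3gnt5, the lactotriaosylceramide synthase that starts lacto-series glycolipids, was the reverse. It was at 0, 0, 0, 0 and 0.0634 CPM in luminal and 22.5, 9.07, 7.66, 5.31 and 9.71 CPM in basal libraries. This is 1 count in all luminal libraries together against 839 in the basal ones, a ratio of 881 with a 95% interval of 158 to 34848 for counting error only. The adjusted p of edgeR was 5.26e-08, and the fitted log2 fold change of -9.05 depends on the prior count and was -10.4 without luminal replicate 5, which holds the 1 luminal count, and -7.95 with limma voom. B3gnt2, the main poly-lactosamine synthase, had the highest length-scaled level of the group in both cell types, with 131, 109, 115, 149 and 117 CPM in luminal and 106, 84.1, 86.5, 86.0 and 114 CPM in basal libraries. Its ranges overlapped and its log2 fold change was 0.38 ± 0.14 (SE, edgeR adjusted p = 0.0251). It was not called with no filter (adjusted p = 0.0865) or without luminal replicate 4 or basal replicate 2, 3 or 4 (0.0580 to 0.0765). A read-through model, Gm28048, joins it to the locus of Commd1, which had 5041 counts over the luminal and 4728 over the basal libraries, and of Zrsr1, with 2702 and 3813, against 9830 and 7325 for B3gnt2. By exon bases these genes could supply 76.25% of its luminal and 113.4% of its basal counts, so its rank in the group is uncertain. B3gnt8 (0.41, adjusted p = 0.0327) shares its span with Bckdha and was not called with the animal as a block (adjusted p = 0.0735), with no filter (0.0833) or without replicate 1 or 5 of either cell type (0.0623 to 0.0894). B3gnt9 (-1.11) and B3gntl1 (-0.84) were higher in basal cells, the first with D230025D16Rik in its span.

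Fucosyltransferases that cap chains were called in both directions, and the core fucosyltransferase was not called. Of 8 members 6 were tested, with 1 higher in luminal cells, 3 higher in basal cells and 2 not called. Fut8, the core fucosyltransferase of N-glycans, was at 44.7, 31.9, 34.7, 22.5 and 35.8 CPM in luminal and 23.1, 26.9, 33.1, 32.8 and 30.0 CPM in basal libraries. The ranges overlapped, the log2 fold change came to 0.22 ± 0.18 (SE, edgeR adjusted p = 0.305), and Fut8 was at 9.54 ± 2.24 CPM per kb of the longest transcript (SD, n = 5) in luminal and 8.22 ± 1.18 in basal cells. Fut11 was at 4.77 ± 1.78 and 9.29 ± 1.67 CPM per kb, below Fut8 in luminal and above it in basal cells, and per kb of summed exon length Fut11 was above Fut8 in both.

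Fut9 and Fut4, both alpha1,3-fucosyltransferases that can make the Lewis x structure, went in opposite directions. Fut9 was at 7.13, 3.84, 3.44, 7.64 and 5.52 CPM in luminal and 0.125, 0.819, 0.310, 0.938 and 0.480 CPM in basal libraries. Fut4 was at 0.0625, 0, 0.245, 0 and 0.127 CPM in luminal and 3.93, 3.89, 3.17, 5.88 and 4.74 CPM in basal libraries. Neither gene had overlapping ranges, and the log2 fold changes were 3.34 ± 0.47 (SE, edgeR adjusted p = 2.45e-05) and -5.50 ± 0.61 (adjusted p = 2.16e-06). Without luminal replicate 3 the Fut4 value was -6.31. Both were low transcripts, under 10 CPM in every library. Fut10 (-2.96, adjusted p = 0.000345, and -3.58 with limma voom) and Fut11 (-0.96, adjusted p = 0.00185) were higher in basal cells, and Fut1 was not called (-0.77, adjusted p = 0.0684). With the filter at 10 or more counts in every library, Fut1 was called at the same value (adjusted p = 0.0210).

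All 6 alpha2,3-sialyltransferases were tested and called, 3 in each direction. St3gal2, which acts on core 1 O-glycans and gangliosides, was at 1.13, 2.0, 1.35, 2.90 and 1.90 CPM in luminal and 28.0, 39.4, 41.0, 31.4 and 43.8 CPM in basal libraries. No luminal library came near the basal ones, and the log2 fold change came to -4.31 ± 0.25 (SE, edgeR adjusted p = 4e-09). St3gal2 was 19.0% ± 2.88 (SD, n = 5) of the length-scaled sum of the group in basal cells.

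St3gal5, the GM3 synthase, was at 10.01, 5.0, 7.85, 3.28 and 9.07 CPM in luminal and 1.93, 1.98, 1.55, 1.0 and 3.0 CPM in basal libraries. The ranges did not overlap, and the log2 fold change came to 1.89 ± 0.37 (SE, edgeR adjusted p = 0.000451). St3gal1, the other core 1 sialyltransferase, had the highest length-scaled level of the group, with 212, 157, 193, 128 and 153 CPM in luminal and 115, 127, 118, 98.8 and 119 CPM in basal libraries. Its lowest luminal value stood just above its highest basal value, and the log2 fold change came to 0.54 ± 0.15 (SE, edgeR adjusted p = 0.00548). St3gal4 was higher in luminal cells (1.03, adjusted p = 0.00435) with overlapping ranges. St3gal3 (-1.47, adjusted p = 8.06e-05) and St3gal6 (-2.83, adjusted p = 1.69e-05), which act on lactosamine chains, were higher in basal cells. The span of St3gal6 holds exons of Dcbld2, which could supply 42.9% of its luminal and 67.7% of its basal counts. Dcbld2 had 191 counts over the luminal and 2118 over the basal libraries, so the St3gal6 value is uncertain.

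**Figure D4:**
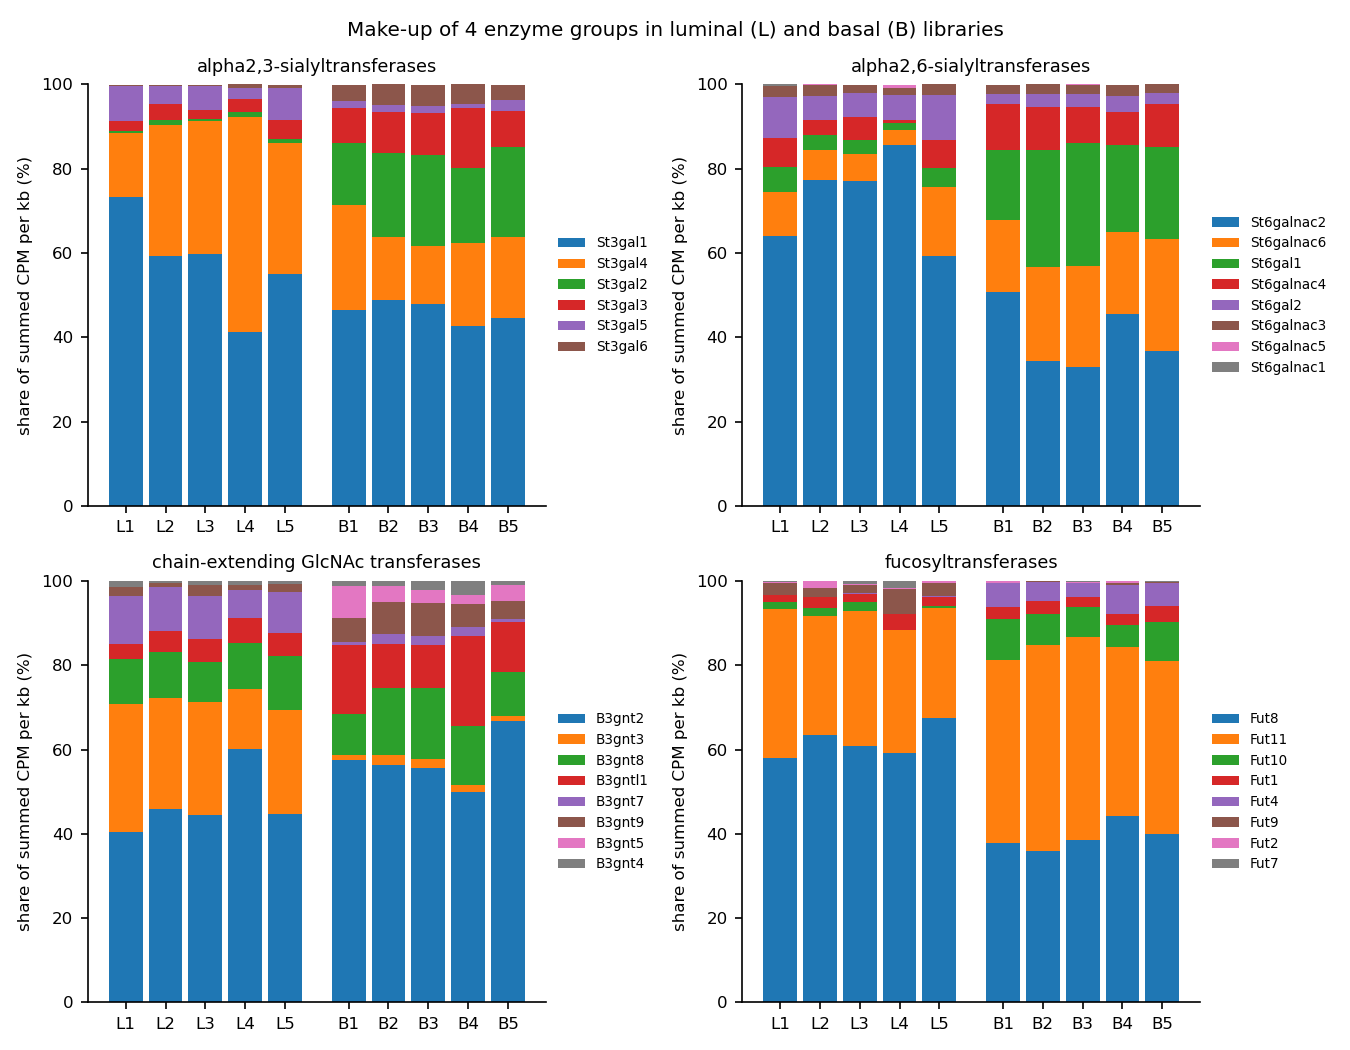
Share of each member in the length-scaled sum (CPM per kb) of its enzyme group, for luminal replicates L1 to L5 and basal replicates B1 to B5. St3gal2 and St6gal1 take a larger share in every basal library and B3gnt3 and Fut8 in every luminal library. The shares of St3gal6, St6galnac2, St6galnac5, B3gnt2, B3gnt4, B3gnt8 and B3gnt9 are uncertain, since they can include genes in their spans. The sums of their groups include them.

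Of 6 alpha2,6-sialyltransferases tested, 1 was higher in luminal cells, 3 were higher in basal cells and 2 not called, a share called near that of all genes. St6gal1, which caps lactosamine on N-glycans, was at 4.57, 3.16, 3.01, 2.44 and 2.86 CPM in luminal and 22.5, 33.2, 39.7, 27.6 and 31.5 CPM in basal libraries. The ranges did not overlap and the log2 fold change came to -3.26 ± 0.22 (SE, edgeR adjusted p = 1.4e-08). Its paralog St6gal2 was at 9.63, 6.85, 6.62, 13.2 and 9.20 CPM in luminal and 4.18, 4.84, 5.34, 6.88 and 4.97 CPM in basal libraries. Its ranges overlapped slightly, and the log2 fold change came to 0.79 ± 0.25 (SE, edgeR adjusted p = 0.0113). Per kb, St6gal1 was thus at 6.86 ± 1.43 CPM (SD, n = 5) and St6gal2 at 0.864 ± 0.166 in basal cells, whereas in luminal cells they were at 0.711 ± 0.179 and 1.5 ± 0.439.

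St6galnac6 (-2.01, adjusted p = 3.36e-06) and St6galnac4 (-1.78, adjusted p = 0.000212) were also higher in basal cells. St6galnac2 had the highest length-scaled level of the group and was at 38.8, 57.2, 53.2, 113 and 30.6 CPM in luminal and 55.3, 33.2, 36.2, 49.3 and 42.8 CPM in basal libraries. Its ranges overlapped and it was not called (0.43, adjusted p = 0.206, and 0.0508 to 0.595 on leaving out a library). Its span holds exons of the abundant RNA Snhg16.

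Of the 6 alpha2,8-sialyltransferases, which build di- and polysialic acid, only St8sia6 passed the filter. It was at 0.813, 1.26, 0.675, 1.22 and 1.27 CPM in luminal and 7.67, 6.96, 6.58, 4.25 and 10.01 CPM in basal libraries. The ranges did not overlap and the log2 fold change came to -2.75 ± 0.32 (SE, edgeR adjusted p = 4.21e-06). The polysialyltransferases St8sia2 and St8sia4 were not tested and were low. St8sia2 had 1 count over the luminal and 132 over the basal libraries (ratio 139, 95% interval 24.5 to 5517 for counting error only) and St8sia4 had 3 and 48 (ratio 16.8, 5.42 to 84.4). St8sia3 had 0 counts in every library, although its span holds 31.3% of the exon bases of St8sia3os, a longer gene with 24302 and 11530 counts.

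Of 23 genes for nucleotide sugars and their transporters, which supply these enzymes, 10 were higher in luminal cells, 5 in basal cells and 8 not called, about the share called over all genes (64.8%). This and the following lists were picked with earlier results of these data known. Gfus, which makes GDP-fucose, had the largest luminal value (1.86 ± 0.18, SE, edgeR adjusted p = 4.74e-07). The largest basal values were Cmah, which is needed for the sialic acid Neu5Gc (-3.62 ± 0.58, SE, edgeR adjusted p = 7.31e-05), and Slc35d1, a transporter of UDP-sugars (-1.97 ± 0.20, adjusted p = 1.04e-06). Slc35a1, the CMP-sialic acid transporter, was higher in luminal cells (1.63, adjusted p = 8.73e-07).

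Of 9 genes that trim N-glycans before branching, 3 were higher in luminal cells, 4 in basal cells and 2 not called, where all genes gave shares of 33.6% and 31.2% in the same order. Man1c1 was at 25.3 to 44.7 CPM in luminal and 1.06 to 5.19 CPM in basal libraries (3.94 ± 0.36, SE, edgeR adjusted p = 3.04e-07), and Prkcsh was next in that direction (0.55, adjusted p = 0.0108). Man2a2 was at 26.3 to 45.7 CPM in luminal and 209 to 366 CPM in basal libraries (-2.98 ± 0.20, SE, edgeR adjusted p = 1.31e-08), and Man1a followed (-1.46, adjusted p = 0.000460). Of 3 sialidases tested, Neu2 was higher in luminal (0.97, with Ngef in its span), Neu3 higher in basal cells (-1.30) and Neu1 not called, and Neu4 had 0 counts.

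Of 12 glycoproteins that carry such chains 11 were tested, and 7 were higher in luminal cells, 1 in basal cells and 3 not called, against the same shares over all genes. These 12 were picked with results of these data known, so their direction is no independent result. Podxl, a sialomucin, was at 211 to 471 CPM in luminal and 0.873 to 2.46 CPM in basal libraries (7.45 ± 0.33, SE, edgeR adjusted p = 3.24e-10), and Muc20 at 19.3 to 42.8 and 0 to 0.614 CPM (7.0, adjusted p = 1.08e-08). Cd44 was the 1 carrier higher in basal cells (-0.69, adjusted p = 0.0259), and its adjusted p was the highest among the 8 called. The number of carriers called ranged from 6 to 9 over the alternatives. It was 7 with upper-quartile factors, with totals only, and without luminal replicate 2 or 3 or basal replicate 4. Epcam, also among the 7 higher in luminal cells, encodes a protein used for the sort and is no independent result.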

How the data were processed

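Transcript levels were measured by poly(A)-selected RNA-seq in 10 libraries of sorted cells. Per gene, the authors deposited raw counts (whole numbers, not normalized) for 24594 Entrez genes, of which 24570 were matched to a RefSeq symbol. The study describes cutadapt and bowtie2 alignment to mm10, and the submitters' processing notes name cutadapt 4.2 and Bowtie2 2.3.5.1. The study states fewer replicates per condition than the 5 libraries here. The counting tool, its annotation and its use of strand are not given in the sources used here, and were examined by comparing counts of genes that lie within each other (GENCODE M21).

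Genes were filtered with filterByExpr (minimum count 10, minimum total 15), scaled by TMM and compared with the quasi-likelihood test of edgeR 4.0.16 (R 4.3.3), cell type the only term, with Benjamini-Hochberg adjustment over 14609 genes. The procedure was tested on simulated data. SE was derived from the log2 fold change and the F statistic. Levels of different genes were compared as CPM per kb of the longest GENCODE transcript. Where a group held 1 to 3 counts in all, the ratio of summed counts is given with an exact 95% interval, which covers counting error only.

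The members and gene lists were chosen with earlier results of these data known. Members with values in every library are Galnt2, C1galt1, C1galt1c1, B4galt1, Mgat5, St6gal1 and Fut8, the largest called change in each direction of each enzyme group (mean of at least 1 CPM), and the member of each group with the highest length-scaled mean over all libraries. The members past the stricter limit and the 2 largest list changes in each direction are named with their values, except 1 item that is not reported here. Other genes named were chosen after their values were seen.

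Same-numbered libraries begin their library description with one number, read as the animal, from which the pairing comes. Correlations of their deviations from the group means ran from -0.134 to 0.252 (mean 0.0442, against -0.00718 for other numbers). The labels do not otherwise say that libraries are separate animals, so p-values measure the spread between these libraries. Alternatives were other scalings (DESeq2 size factors, upper quartile, totals only), other filters, DESeq2 1.42.0, limma voom (3.58.1), the animal as a block, leaving out each library, and summed exon length. Leaving out Galnt2, leaving out members in which other genes could supply 20% or more of the counts, and a bound for members counted in 1 group were added after seeing the data.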

Additional observations from a re-analysis of the deposited data

Results flagged for a closer look

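Of 123 groups of 5 libraries tested for a single value far from the other 4 (Dixon's test at 95%), 7 were flagged, where chance alone gives about 6.15. Galnt6 was at 18.6 CPM in luminal replicate 1 and at 3.50 to 4.66 CPM in the other luminal libraries. B3gnt5 was at 22.5 CPM in basal replicate 1, against 5.31 to 9.71 CPM in the others, and Mgat4a at 13.5 CPM in the same library, against 20.4 to 22.5 CPM. Basal replicate 4 held 3 of the flags, with Mgat5 at 214 CPM against 132 to 150 CPM, Galnt18 at 112 CPM against 87.6 to 92.7 CPM, and B4galt3 at 70.4 CPM against 77.4 to 79.1 CPM. Mgat4c was at 2.67 CPM in luminal replicate 4 and at 0.859 to 1.27 CPM elsewhere among luminal cells. The causes were not tested.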

How the results depend on the processing

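Of 1182 member values under the alternatives, 1138 kept both their direction and their call, 19 lost and 16 gained a call, and 9 changed sign. Of the 44 called members, 40 kept their call in every alternative in which they were tested and 0 changed sign. The exceptions were Galnt3, Mgat2, B3gnt2 and B3gnt8. Members that gained a call under some alternative included Galnt10, Galnt11, Mgat1, Mgat4c, St6galnac3, Fut1 and B3galt1. The sign changed for members that were not called, namely Galnt7 with totals only (0.0225), B4galt4 with upper-quartile factors (0.0697) and totals only (0.14), Gcnt7 with limma voom (-0.20) and on leaving out a library (-0.16 to 0.45), and B3gnt4 on leaving out a library (-0.58 to 0.14, above 0 without basal replicate 4 only). The median log2 fold change of the members was 0.26 with upper-quartile factors, 0.31 with totals only, -0.11 with at least 10 counts in every library, 0.0208 with the animal as a block, -0.0534 with limma voom and -0.0676 to 0.23 on leaving out a library, so its sign is not settled. Upper-quartile factors and totals only shifted the median of all genes by 0.12 and 0.19. Members called ranged from 17 to 23 higher in luminal and 20 to 26 higher in basal cells over fits with different numbers of members tested, and genes called over the same alternatives from 4178 to 5705 and from 3705 to 5089. The replicate block changed no member call other than that of B3gnt8 (adjusted p = 0.0735). Members that did not pass the filter had low counts, and the part of sequencing depth in this was not tested. With no filter, 83 members were tested, of which 21 were called higher in luminal and 26 in basal cells. In the same fit all genes gave 4966 and 5089 calls among 20612 tested.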
